A study of Mus musculus with 18 samples.

Results

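The CC chemokines described here were 10 genes fixed by name: Ccl2, Ccl3, Ccl4, Ccl5, Ccl6, Ccl7, Ccl8, Ccl9, Ccl11, and Ccl12, among 34989 genes with a transcript in the deposited tables. For each gene, the estimated counts of all its transcripts were summed in each library. RNA was sequenced from the left ventricle (LV) and right ventricle (RV) of isolated hearts of mice labelled C57B/L6 and 12 weeks old, with 3 libraries for each ventricle after 0, 4, or 8 h of cold ischemic storage (CIS), 18 in all. Every heart, those of the 0 h groups included, was flushed with the preservation solution HTK and then perfused ex vivo with Krebs buffer for 1 h before the ventricles were frozen, so that 0 h stands for perfusion with no storage in the cold, not for an untouched heart. The study's methods give another age and both sexes, and the labels give no sex. The design asks how storage time moved transcripts in each ventricle and whether the ventricles differed.

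CC chemokines are small secreted proteins that attract leukocytes by binding to G protein-coupled receptors, the Ccr family, while atypical receptors bind the same ligands and remove or redistribute them. Resident macrophages, endothelial cells, fibroblasts, and cardiomyocytes can all make them. They are known in injured hearts for the early recruitment of monocytes and other leukocytes, and many are target genes of NF-kB. Ccl2, Ccl7, Ccl8, and Ccl12 belong to the monocyte chemoattractant proteins, Ccl3, Ccl4, and Ccl5 attract macrophages and T cells, Ccl6 and Ccl9 act on Ccr1, and Ccl11 is eotaxin, the eosinophil attractant that acts on Ccr3.

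All 10 genes lay on mouse chromosome 11 (GRCm38) in a pair of clusters. The first spanned 81.229 kb and held Ccl2 (82035571 to 82037453), Ccl7 (82045712 to 82047525), Ccl11 (82057823 to 82062955), Ccl12 (82101845 to 82103400), and Ccl8 (82115185 to 82116799), all on the plus strand. The second spanned 138.906 kb and held Ccl5 (83525778 to 83530518), Ccl9 (83572919 to 83578636), Ccl6 (83587882 to 83593087), and Ccl3 (83647844 to 83649355) on the minus strand and Ccl4 (83662584 to 83664683) on the plus strand. The clusters were 1408978 bases apart. No run of 31 bases, the word length with which Kallisto assigns reads by default, was shared between any members, and 6 of them (Ccl2, Ccl3, Ccl4, Ccl7, Ccl8, and Ccl12) shared none with any other gene. Of the words of Ccl9, 3.75% also occurred in other genes, and of those of Ccl6 1.02%, so that the counts of these genes are slightly less certain than their depth implies. Ccl2 overlapped the antisense gene Gm17268, which was at 0 in all 18 libraries.

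Because nearly all members moved together with storage, the sequence before the gene start is shown for the 5 of 10 members found in the RefSeq table (GRCm38.p6). The others, Ccl2, Ccl4, Ccl5, Ccl7, and Ccl11, are named only. Each line holds the 250 bases before the RefSeq start, 5′ to 3′ on the strand of the gene. Capitals mark a match to 1 of 4 motifs searched on both strands. These were the NF-kB consensus of 10 letters, the AP-1 site TGANTCA, the interferon-stimulated response element, and the TATA box TATAAA.
Ccl9, chr11:83578637-83578886, minus strand: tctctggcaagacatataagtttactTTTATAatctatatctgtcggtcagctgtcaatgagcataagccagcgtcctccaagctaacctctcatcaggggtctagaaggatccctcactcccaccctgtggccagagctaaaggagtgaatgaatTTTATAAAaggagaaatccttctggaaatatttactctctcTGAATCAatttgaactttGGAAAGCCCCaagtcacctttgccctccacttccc
Ccl8, chr11:82114935-82115184, plus strand: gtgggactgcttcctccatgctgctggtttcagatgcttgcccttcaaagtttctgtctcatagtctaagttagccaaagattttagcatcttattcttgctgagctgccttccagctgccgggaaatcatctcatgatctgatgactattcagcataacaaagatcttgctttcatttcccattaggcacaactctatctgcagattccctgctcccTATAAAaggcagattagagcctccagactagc
Ccl12, chr11:82101595-82101844, plus strand: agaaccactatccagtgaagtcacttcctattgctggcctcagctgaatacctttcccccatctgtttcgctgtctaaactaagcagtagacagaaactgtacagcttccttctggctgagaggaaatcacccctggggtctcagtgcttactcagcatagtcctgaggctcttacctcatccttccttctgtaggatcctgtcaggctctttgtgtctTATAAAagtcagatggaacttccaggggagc
Ccl3, chr11:83649379-83649628, minus strand: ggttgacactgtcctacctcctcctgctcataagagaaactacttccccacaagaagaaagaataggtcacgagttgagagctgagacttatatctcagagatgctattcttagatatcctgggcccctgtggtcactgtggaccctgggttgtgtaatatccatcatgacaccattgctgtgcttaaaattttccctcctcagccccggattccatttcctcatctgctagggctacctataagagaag
Ccl6, chr11:83593088-83593337, minus strand: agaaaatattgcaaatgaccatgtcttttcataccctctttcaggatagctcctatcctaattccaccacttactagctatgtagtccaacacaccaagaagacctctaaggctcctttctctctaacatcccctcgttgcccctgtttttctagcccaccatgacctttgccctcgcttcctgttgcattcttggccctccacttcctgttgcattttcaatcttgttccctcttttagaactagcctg

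In these windows Ccl9 held a match to the NF-kB consensus on the opposite strand, 35 to 26 bases before the start, an AP-1 match 53 to 47 bases before it, and TATA matches, of which those on opposite strands between 94 and 87 bases before the start overlapped. Ccl8 held a TATA match 32 to 27 bases before the start, and Ccl12 held one 31 to 26 bases before it. Neither Ccl3, which rose with storage, nor Ccl6, which was not called, held a match to these letters in its window. The Ccl3 window ends at 83649379, whereas the gene start given above is 83649355, so the bases between them were not searched. Among 27025 genes with a window of the same length, 7.008% held an NF-kB match, 6.868% an AP-1 match, 3.038% an interferon-stimulated response element, and 12.97% a TATA match. A match is a description of letters in the window.

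The libraries held 22552581 to 46236771 estimated counts, of which 22.7% to 34.4% came from the mitochondrial genome. This share was 22.7% to 32.6% at 0 h, 24.9% to 27.7% at 4 h, and 32.0% to 34.4% at 8 h. Transcripts of ventricular cardiomyocytes (Myh6, Tnnt2, Actc1, Myl2, Myl3, and Tnni3) summed to between 28578 and 66250.2 CPM, the unit of estimated counts scaled to library size,, which fits the labelled tissue. Some libraries stood apart in genes that bear on the values given here. Tnf was 80.7 and 84.1 CPM in replicate 1 of LV and RV at 0 h, against 15.5 to 34.8 CPM in the other 0 h libraries. Cxcl10, an interferon-induced chemokine of another family, was 1136 to 2213 CPM in the replicates 3 of the stored groups and 77.5 to 447 CPM in their replicates 1 and 2. The Y-linked gene Ddx3y was 1.47 to 2.44 CPM in those replicates 3 and 1.69 and 1.86 CPM in replicate 2 at 0 h, against 62.1 to 115 CPM elsewhere. The labels do not say that replicates came from separate hearts, and p-values measure the spread between these libraries.

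Levels of different genes are compared per length, as TPM, the length-corrected share of a transcript in its library. Ccl2, the main attractant of monocytes that carry Ccr2, was the most abundant member in every library. In LV it stood at 119 ± 90.8 TPM (SD, n = 3) at 0 h, 538 ± 63.0 TPM at 4 h, and 405 ± 123 TPM at 8 h, and in RV at 116 ± 104 TPM, 669 ± 94.6 TPM, and 657 ± 92.3 TPM. Ccl7 was second in every group, at 64.0 ± 34.6 TPM in LV and 63.7 ± 49.2 TPM in RV at 0 h and at 174 ± 30.1 TPM and 290.3 ± 31.2 TPM at 8 h. Both genes together held between 62.0% and 67.0% of the summed TPM of the 10 members, as a mean of each group. At 8 h the next places in RV were held by Ccl4 at 168 ± 46.9 TPM, Ccl3 at 115 ± 45.7 TPM, Ccl5 at 78.5 ± 27.1 TPM, and Ccl9 at 42.5 ± 13.3 TPM, and then by Ccl12 at 26.8 ± 8.34 TPM, Ccl6 at 26.3 ± 18.5 TPM, Ccl11 at 23.4 ± 4.01 TPM, and Ccl8 at 13.1 ± 3.82 TPM.

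Neighbours in this order often overlapped in their ranges over libraries, which does not compare them within a library. In RV at 8 h, the libraries of Ccl2 and Ccl7, of Ccl7 and Ccl4, of Ccl5 and Ccl9, and of Ccl11 and Ccl8 did not overlap, while the neighbours between them did. The order in LV at 8 h was Ccl2, Ccl7, Ccl4, Ccl5, Ccl3, Ccl9, Ccl12, Ccl6, Ccl11, and Ccl8, and there only Ccl2 and Ccl7, Ccl7 and Ccl4, and Ccl3 and Ccl9 were separated. At 0 h in LV, only Ccl3 at 31.4 ± 15.6 TPM and Ccl6 at 9.66 ± 2.72 TPM were neighbours without overlap. Ccl8 was lowest in 15 of 18 libraries, Ccl5 was lowest in replicate 3 at 0 h of both ventricles, and Ccl6 in replicate 3 of LV at 8 h. Within a cluster, the ratio of Ccl2 to Ccl7 ranged from 1.31 to 3.76 over the libraries (median 2.18), so that Ccl2 was above Ccl7 in each library. That of Ccl3 to Ccl4 ranged from 0.518 to 1.11 (median 0.717). In RV at 8 h, where the ranges of Ccl3 and Ccl4 overlapped, it was 0.669, 0.773, and 0.557, with Ccl4 higher in each library.

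The summed TPM of the members rose from 282 ± 162 TPM in LV at 0 h to 1116 ± 84.2 TPM at 4 h and 885 ± 197 TPM at 8 h, and in RV from 268 ± 184 TPM to 1344 ± 244 TPM and 1440.1 ± 143 TPM. These sums are given as a description, without a test. The share of Ccl5 in the sum was 1.38 ± 0.45% in LV at 0 h and 6.96 ± 2.93% at 8 h, and in RV 2.04 ± 1.10% and 5.51 ± 2.10%. That of Ccl6 was 4.77 ± 3.92% and 2.38 ± 1.76% in LV and 7.69 ± 5.45% and 1.76 ± 1.05% in RV.

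**Figure D1:**
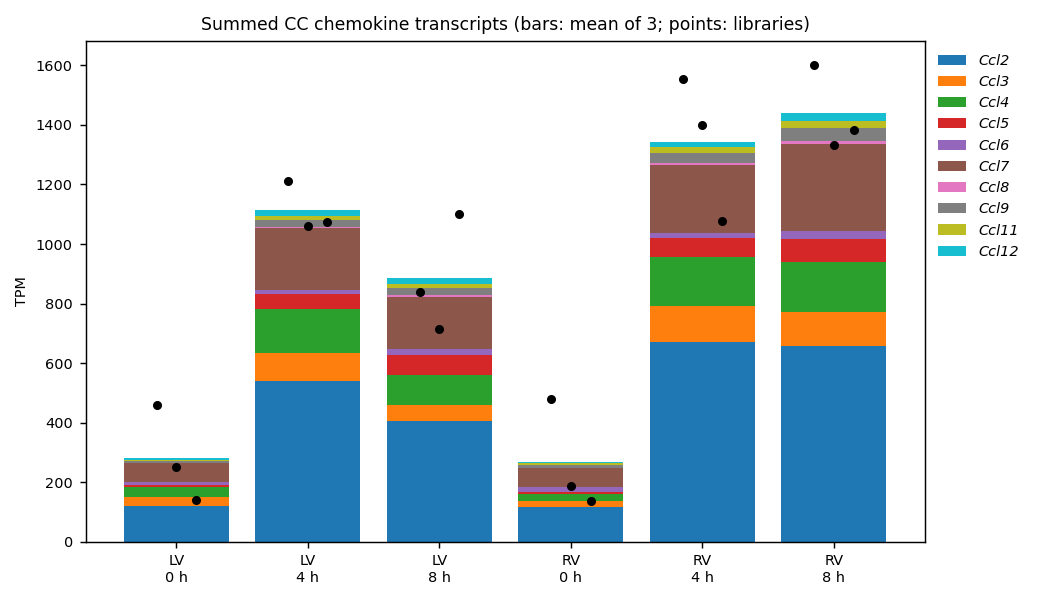
Summed TPM of the 10 CC chemokines (vertical axis, TPM) in LV and RV after 0, 4, and 8 h of storage, with bars stacked by gene for the mean of 3 libraries and points for the sum in each library. The sums of the stored libraries, between 713 and 1603 TPM, all lie above those at 0 h, the highest of which was 478 TPM.

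Transcripts of most of these 10 CC chemokines were higher after storage in both ventricles. With edgeR's quasi-likelihood test and calls made where the fold change passed 1.5 and the p-value, adjusted by Benjamini and Hochberg's method, was below 0.1, 8 of 10 members rose in LV at 4 h and 9 of 10 at 8 h, where 2.4% and 5.46% of all genes tested rose. In RV, 9 of 10 rose at 4 h and 9 of 10 at 8 h, where 6.17% and 13% of all genes rose. No member was called lower, as 0.398% and 1.26% of genes in LV and 3.91% and 5.26% in RV were. All 10 members had enough counts to be tested, with 6 to 159 counts a library for Ccl8, 11 to 1141 for Ccl5, and 21 to 338 for Ccl12. The median log2 fold change of the members was 1.83 and 1.94 in LV and 2.12 and 2.86 in RV at 4 h and 8 h, beside medians over all genes tested of -0.0044, -0.017, 0.0034, and -0.072. In each of these comparisons 9 of 10 members had every stored library above every 0 h library, which held for 12.9% and 15.5% of all genes in LV and 15.1% and 18.5% in RV. The comparisons of 4 h and 8 h in a ventricle share their 0 h libraries. In bulk tissue, a change in the number of cells of a type and a change in RNA per cell cannot be told apart.

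The count in LV at 4 h rested on single libraries. It was 0 without replicate 2 of LV at 0 h, 3 without replicate 3 at 0 h, and 2 without either replicate 1 or replicate 3 at 4 h, although the log2 fold changes of all 10 members stayed above 0. At 8 h in LV it was 3 without replicate 2 at 0 h, 6 without replicate 3 at 0 h, and 7 to 10 without any other library. In RV it was 4 at 4 h without replicate 2 at 0 h, 6 without replicate 1 at 4 h, and 7 to 9 otherwise, while at 8 h it was 9 or 10. Without the replicates 3 of both stored groups, which stood apart in Cxcl10, 8 members in LV rose at each time, and in RV 9 rose at 4 h and 10 at 8 h.

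**Figure D2:**
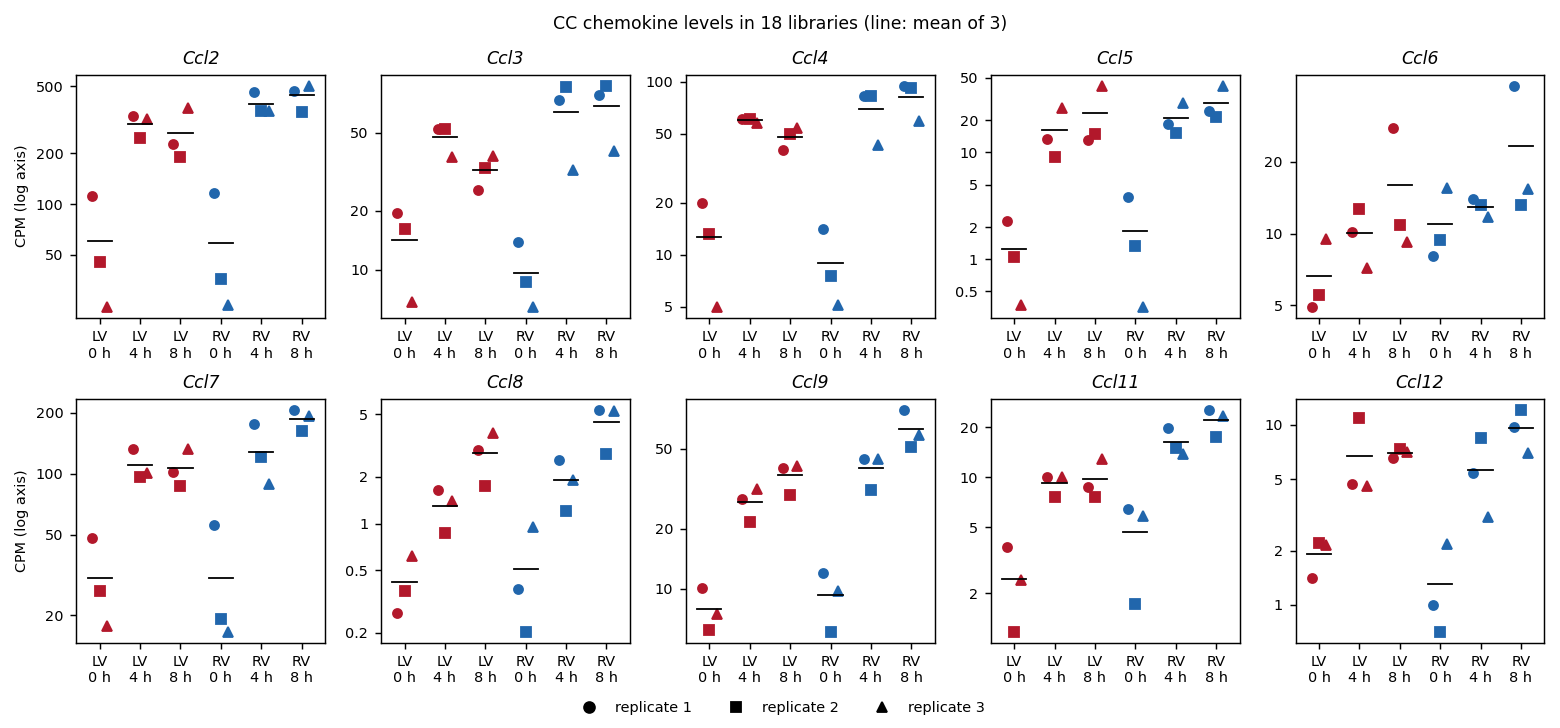
CPM of each CC chemokine (vertical log axis, each panel with its own range) in the 18 libraries, with circles, squares, and triangles for replicates 1, 2, and 3, red for LV, blue for RV, and a line for the mean of 3. All panels but that of Ccl6 show every stored library above every 0 h library of its ventricle, such as Ccl2 at 190.5 to 504 CPM against 24.7 to 116 CPM.

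Among the monocyte chemoattractants, Ccl2 stood at 112, 45.7, and 24.7 CPM in LV at 0 h, at 334, 247, and 319 CPM at 4 h, and at 227, 190.5, and 371 CPM at 8 h. In RV the values were 116, 35.9, and 25.2 CPM at 0 h, 462, 356, and 355 CPM at 4 h, and 469, 351, and 504 CPM at 8 h. Replicate 1 was the highest of the 0 h libraries in both ventricles, where Tnf was also highest, and it was still below every stored library. Ccl2 rose 4.95-fold at 4 h in LV (log2 fold change 2.31, SE 0.50, adjusted p = 0.0679) and 4.34-fold at 8 h (2.12, SE 0.50, adjusted p = 0.0520). In RV it rose 6.68-fold (2.74, SE 0.52, adjusted p = 0.0200) and 7.54-fold (2.91, SE 0.52, adjusted p = 0.00877). The call in LV at 4 h was lost without replicate 2 or 3 at 0 h (adjusted p = 0.307 and 0.178). It was also lost without any 1 replicate at 4 h (adjusted p = 0.111 to 0.179). Leaving out replicate 1 or 2 at 8 h moved it just past the threshold (adjusted p = 0.1001 and 0.101). The call in LV at 8 h was lost without replicate 2 (adjusted p = 0.224) or replicate 3 (adjusted p = 0.118) at 0 h, without replicate 3 at 8 h (adjusted p = 0.145), and without both stored replicates 3 (adjusted p = 0.104).

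Ccl7, which acts on several CC receptors including Ccr2, followed closely. In LV it was 48.2, 26.2, and 17.7 CPM at 0 h, 133, 96.7, and 101 CPM at 4 h, and 101, 87.1, and 133 CPM at 8 h. In RV it was 55.9, 19.3, and 16.7 CPM, then 175, 121, and 88.8 CPM, and then 205, 162, and 192 CPM. The 0 h libraries lay below all stored libraries, with replicate 1 again the highest of them. Ccl7 rose 3.58-fold (log2 fold change 1.84, SE 0.34, adjusted p = 0.0431) and 3.49-fold (1.80, SE 0.34, adjusted p = 0.0296) at 4 h and 8 h in LV. The increases in RV were 4.23-fold (2.08, SE 0.46, adjusted p = 0.0324) and 6.13-fold (2.62, SE 0.46, adjusted p = 0.00860).

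Ccl12, a further ligand of Ccr2 in the mouse, was at 1.40, 2.19, and 2.15 CPM in LV at 0 h, 4.69, 10.9, and 4.56 CPM at 4 h, and 6.51, 7.36, and 7.04 CPM at 8 h. Its values in RV were 0.994, 0.711, and 2.19 CPM, 5.38, 8.44, and 3.08 CPM, and 9.79, 12.0, and 7.0 CPM. Replicate 2 was the highest library at 4 h in both ventricles, and replicate 1 was not high at 0 h, unlike for Ccl2 and Ccl7. Ccl12 rose 3.53-fold (log2 fold change 1.82, SE 0.35, adjusted p = 0.0473) and 3.67-fold (1.87, SE 0.35, adjusted p = 0.0292) in LV and 4.37-fold (2.13, SE 0.46, adjusted p = 0.0322) and 7.43-fold (2.89, SE 0.47, adjusted p = 0.00618) in RV.

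Ccl8, the member with the fewest counts, stood at 0.268, 0.371, and 0.622 CPM in LV at 0 h, 1.65, 0.868, and 1.40 CPM at 4 h, and 2.96, 1.73, and 3.83 CPM at 8 h. In RV it stood at 0.380, 0.203, and 0.947 CPM, 2.56, 1.21, and 1.90 CPM, and 5.31, 2.80, and 5.26 CPM. Storage groups did not overlap with 0 h in either ventricle. At 4 h the change in LV of 3.14-fold was not called (log2 fold change 1.65, SE 0.43, adjusted p = 0.115), and Ccl8 rose 3.76-fold in RV (1.91, SE 0.53, adjusted p = 0.0677). In LV at 4 h it was called by DESeq2 (adjusted p = 0.0151), with the replicate block (adjusted p = 0.0597), with the Y-linked covariate (adjusted p = 0.0986), and without the filter (adjusted p = 0.0998). At 8 h it rose 6.80-fold in LV (2.76, SE 0.43, adjusted p = 0.0165) and 8.80-fold in RV (3.14, SE 0.53, adjusted p = 0.00720).

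Of the attractants of macrophages and T cells, Ccl3, also known as macrophage inflammatory protein 1 alpha, was 19.4, 16.1, and 6.81 CPM in LV at 0 h, 52.1, 52.3, and 37.4 CPM at 4 h, and 25.4, 33.2, and 37.9 CPM at 8 h. In RV it was 13.8, 8.67, and 6.46 CPM, then 73.7, 85.1, and 32.2 CPM, and then 77.6, 87.0, and 40.5 CPM. Replicate 3 was the lowest library of RV at each time. Ccl3 rose 3.35-fold at 4 h (log2 fold change 1.74, SE 0.34, adjusted p = 0.0498) and 2.28-fold at 8 h (1.19, SE 0.34, adjusted p = 0.0890) in LV, the latter the smallest called increase among the members. In RV it rose 6.66-fold (2.74, SE 0.43, adjusted p = 0.0109) and 7.09-fold (2.83, SE 0.44, adjusted p = 0.00495). The call in LV at 8 h was lost with transcript-length offsets (adjusted p = 0.122), with all 18 libraries in 1 fit (adjusted p = 0.136), without the stored replicates 3 (adjusted p = 0.159), and without any 1 of 6 single libraries (adjusted p = 0.112 to 0.240).

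Ccl4, macrophage inflammatory protein 1 beta, whose gene neighbours Ccl3 on the opposite strand, was 19.8, 13.2, and 5.01 CPM in LV at 0 h, 61.1, 60.4, and 57.3 CPM at 4 h, and 40.0, 49.5, and 54.0 CPM at 8 h. Its values in RV were 14.1, 7.55, and 5.16 CPM, 82.4, 82.0, and 43.1 CPM, and 94.7, 91.5, and 59.2 CPM. In LV the libraries at 4 h all lay above those at 8 h, and in RV replicate 3 was again the lowest. Ccl4 rose 4.69-fold (log2 fold change 2.23, SE 0.39, adjusted p = 0.0383) and 3.77-fold (1.91, SE 0.39, adjusted p = 0.0366) in LV and 7.80-fold (2.96, SE 0.40, adjusted p = 0.00710) and 9.17-fold (3.20, SE 0.41, adjusted p = 0.00226) in RV.

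Ccl5, or RANTES, which acts on Ccr1 and Ccr3 and attracts T cells and monocytes, had the largest fold change of the members in all 4 comparisons. In LV it was 2.29, 1.05, and 0.373 CPM at 0 h, 13.5, 9.07, and 25.9 CPM at 4 h, and 13.0, 15, and 42.1 CPM at 8 h. In RV it was 3.80, 1.32, and 0.359 CPM, then 18.6, 15.3, and 29.3 CPM, and then 24.3, 21.4, and 42.3 CPM. Replicate 3 was the lowest library at 0 h and the highest at 4 h and 8 h in both ventricles. Ccl5 rose 12.5-fold (log2 fold change 3.65, SE 0.71, adjusted p = 0.0476) and 18.2-fold (4.18, SE 0.72, adjusted p = 0.0218) in LV and 11.5-fold (3.53, SE 0.67, adjusted p = 0.0201) and 16.1-fold (4.01, SE 0.68, adjusted p = 0.00714) in RV. The stored replicates 3 were those high in Cxcl10, and without them Ccl5 was still called throughout, with log2 fold changes of 3.11 and 3.41 (LV) and 3.20 and 3.61 (RV). The call in LV at 4 h was lost without replicate 2 (adjusted p = 0.248) or replicate 3 (adjusted p = 0.178) at 0 h, and without replicate 1 (adjusted p = 0.125) or replicate 3 (adjusted p = 0.138) at 4 h.

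The remaining ligands of Ccr1 went apart. Ccl9 was 10.1, 6.21, and 7.50 CPM in LV at 0 h, 28.2, 21.5, and 31.6 CPM at 4 h, and 40.0, 29.6, and 41.2 CPM at 8 h. In RV it was 12.1, 6.13, and 9.76 CPM, then 44.6, 31.1, and 44.7 CPM, and then 78.0, 51.1, and 59.0 CPM. Replicate 2 was the lowest library of each group, and no stored library overlapped with 0 h. Ccl9 rose 3.41-fold (log2 fold change 1.77, SE 0.22, adjusted p = 0.0153) and 4.66-fold (2.22, SE 0.22, adjusted p = 0.00349) in LV and 4.35-fold (2.12, SE 0.28, adjusted p = 0.00645) and 6.76-fold (2.76, SE 0.28, adjusted p = 0.00110) in RV. Its SE and its adjusted p were the lowest of the members in all 4 comparisons.

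Ccl6, whose gene lies next to Ccl9, was the exception. In LV it was 4.94, 5.54, and 9.49 CPM at 0 h, 10.2, 12.7, and 7.21 CPM at 4 h, and 27.7, 10.9, and 9.24 CPM at 8 h, and in RV 8.07, 9.38, and 15.6 CPM, 14.0, 13.2, and 11.7 CPM, and 41.8, 13.2, and 15.3 CPM. Stored and 0 h libraries overlapped in every comparison, and replicate 1 at 8 h stood above the rest in both ventricles. The log2 fold changes were 0.60 (SE 0.43, adjusted p = 0.571) and 1.27 (SE 0.44, adjusted p = 0.132) in LV and 0.26 (SE 0.41, adjusted p = 0.833) and 1.09 (SE 0.41, adjusted p = 0.109) in RV. Over 11 fits, those without 1 library aside, the adjusted p at 8 h lay between 0.0297 and 0.159 (LV) or between 0.0448 and 0.119 (RV), and DESeq2 called Ccl6 at 8 h in both. Summed macrophage markers were also highest in replicate 1 at 8 h, at 336 CPM in LV and 484 CPM in RV, against 160 to 315 CPM in the other 16 libraries. The part of this in the level of Ccl6 was not tested.

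Ccl11, the eotaxin, was 3.80, 1.18, and 2.40 CPM in LV at 0 h, 10.1, 7.59, and 10.0 CPM at 4 h, and 8.69, 7.63, and 12.8 CPM at 8 h. In RV the values were 6.46, 1.73, and 5.88 CPM, 19.9, 15, and 13.8 CPM, and 25.2, 17.4, and 23.3 CPM. Replicate 2 was the lowest at 0 h in both ventricles, and no stored library reached down to the 0 h libraries of its ventricle. Ccl11 rose 3.70-fold (log2 fold change 1.89, SE 0.37, adjusted p = 0.0504) and 3.89-fold (1.96, SE 0.37, adjusted p = 0.0303) in LV and 3.49-fold (1.80, SE 0.41, adjusted p = 0.0359) and 4.72-fold (2.24, SE 0.41, adjusted p = 0.00977) in RV.

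**Figure D3:**
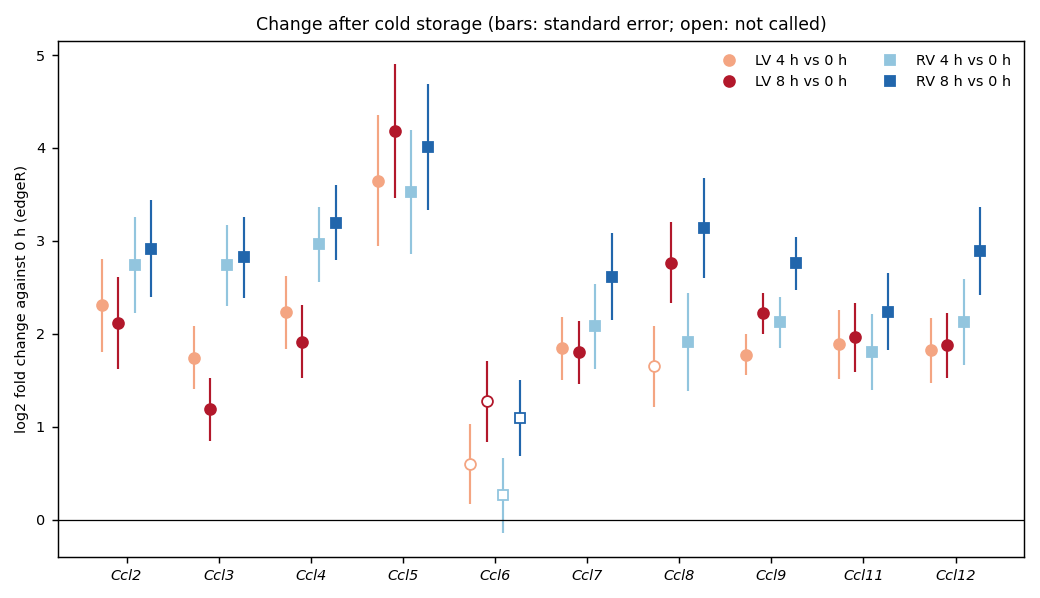
Log2 fold change of each CC chemokine against 0 h (vertical axis, edgeR) at 4 h and 8 h in LV (circles) and RV (squares), with bars of 1 standard error and open symbols where the change was not called. Ccl5 lies highest, between 3.53 and 4.18, Ccl6 lies lowest except in LV at 8 h, where Ccl3 does, and only Ccl6 and Ccl8 in LV at 4 h are open.

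Between 4 h and 8 h no member was called in either ventricle, and no gene at all was called there (0% of all genes tested). DESeq2 also called 0 members. For Ccl8 in LV, all libraries at 8 h lay above those at 4 h, with a log2 difference of 1.12 (SE 0.40, adjusted p = 0.562 by edgeR). In RV, Ccl8 at 1.23 (SE 0.48) and Ccl9 at 0.64 (SE 0.26) were also without overlap, both with an adjusted p of 0.599 by edgeR. Of all genes, 5.38% in LV and 6% in RV were without overlap in this direction. Ccl4 in LV lay lower at 8 h than at 4 h without overlap, as did 7.59% of all genes, with a log2 difference of -0.32 (SE 0.38, adjusted p = 0.809). In RV the estimates of all 10 members were above 0 with a median of 0.51, and in LV 6 of 10 were above 0 with a median of 0.06. Ccl2 was at -0.19 (SE 0.48) in LV and 0.18 (SE 0.49) in RV, and Ccl7 at -0.04 (SE 0.33) and 0.53 (SE 0.44).

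The ventricles were compared at each storage time with all 18 libraries in 1 model. At a given storage time, the LV and RV libraries of 1 replicate number moved together around the means of their groups. Their correlation over genes was 0.284 to 0.668 in the 9 pairs. Same-number libraries of 4 h and 8 h, which come from separate hearts, also correlated, at 0.322 to 0.535 in LV and 0.302 to 0.461 in RV. A shared heart thus cannot be told apart here from other features shared by a replicate number. Libraries of 1 number and storage time are treated below as the ventricles of 1 heart, although the labels do not say so. Without the pairing, edgeR and DESeq2 called 0 members at each time. Of all genes, 0.0729%, 0%, and 0.0133% were called higher in LV and 0.0861%, 0.0133%, and 0.0199% lower. All libraries of LV lay below those of RV for Ccl2 and Ccl11 at 4 h and for Ccl3, Ccl4, Ccl7, Ccl9, and Ccl11 at 8 h, beside 4.62% and 5.94% of all genes. With the heart as a block, 2 members were lower in LV than in RV at 0 h, 1 at 4 h, and 7 at 8 h, where 1.01%, 1.09%, and 6.53% of all genes were lower. No member was higher, beside 0.835%, 0.835%, and 2.25% of all genes. The members with LV below RV in all 3 hearts numbered 2, 6, and 9 at 0, 4, and 8 h, and 21.2%, 21.4%, and 24.1% of all genes did so. The members come from the same libraries and moved together, so they are not replicates of each other.

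At 8 h the called members were Ccl2, Ccl3, Ccl4, Ccl7, Ccl8, Ccl9, and Ccl11. Ccl11 had the largest difference, with RV at 2.90, 2.27, and 1.82 times LV in hearts 1, 2, and 3 and a log2 difference of -1.20 (SE 0.15, paired edgeR adjusted p = 0.000506). Ccl3 was 3.05, 2.62, and 1.07 times higher in RV, which gave -1.05 (SE 0.26, adjusted p = 0.0141), and Ccl4 was 2.37, 1.85, and 1.10 times higher, which gave -0.76 (SE 0.21, adjusted p = 0.0231). For both genes, heart 3 showed hardly any difference. Ccl2 was 2.06, 1.84, and 1.36 times higher in RV (-0.79, SE 0.13, adjusted p = 0.00168) and Ccl7 2.02, 1.85, and 1.45 times (-0.81, SE 0.14, adjusted p = 0.00216). Ccl9 was 1.95, 1.73, and 1.43 times higher (-0.76, SE 0.09, adjusted p = 0.000455), and Ccl8 had a difference of -0.67 (SE 0.19, adjusted p = 0.0267). In each of these genes heart 1 had the largest ratio and heart 3 the smallest.

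Of the other 3 members at 8 h, Ccl5 at -0.46 (SE 0.15, paired edgeR adjusted p = 0.0487) and Ccl6 at -0.53 (SE 0.11, adjusted p = 0.00741) stayed under the fold threshold, and Ccl12 was at -0.45 (SE 0.21, adjusted p = 0.144). The count of 7 was 4 without heart 1, 8 without heart 2, and 9 without heart 3. At 0 h the called members were Ccl11 at -0.91 (SE 0.19, adjusted p = 0.0294) and Ccl6 at -0.73 (SE 0.12, adjusted p = 0.0121), and at 4 h Ccl11 at -0.81 (SE 0.15, adjusted p = 0.0207). Ccl11 was thus lower in LV at each time, with RV at 1.38 to 2.90 times LV over the 9 hearts. Ccl6 was 1.63, 1.69, and 1.64 times higher in RV at 0 h. The calls at 0 h numbered 1 without heart 1 or heart 3, and that at 4 h was lost without heart 1 or heart 2. Summed macrophage markers were higher in RV than in LV of the same heart in all 9 hearts, at 160 to 336 CPM in LV and 205 to 484 CPM in RV, and fibroblast, smooth muscle, mast cell, and neutrophil markers were too. The neutrophil gene S100a9 went the other way at 8 h, at 6.38, 0.949, and 1.96 CPM in LV against 1.27, 0.133, and 1.48 CPM in RV. At 8 h the medians of LV and RV were 88.6 and 122 CPM for monocyte, 730 and 1031 CPM for endothelial, 130 and 228 CPM for smooth muscle, and 8.42 and 18.2 CPM for mast cell markers. Cardiomyocyte markers were 42157 to 48405 CPM in LV at 8 h and 28578 to 53859 CPM in RV. The part of these cells in the differences was not tested.

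**Figure D4:**
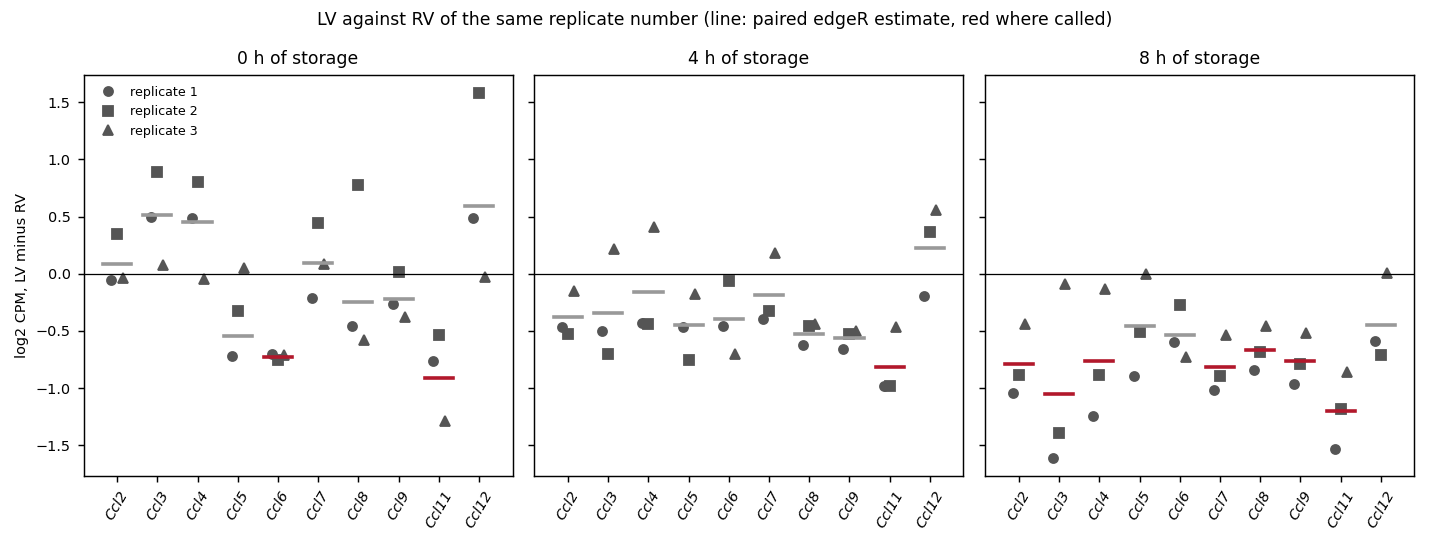
Log2 CPM of LV minus RV (vertical axis) for each CC chemokine in libraries of the same replicate number at 0, 4, and 8 h, with a symbol for each replicate and a line for the paired edgeR estimate, red where called. Points scatter around 0 at 0 h for most members. At 8 h, 9 of 10 members lie below 0 in all 3 replicates, as did 24.1% of all genes.

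The difference between ventricles in the change from 0 h was tested as an interaction. Without the pairing 0 members were called at either time by edgeR or DESeq2. With the heart as a block, no member was called for the change to 4 h. Of all genes, 0.265% were lower and 0.0398% higher in the LV change. For the change to 8 h, 4 members had a smaller increase in LV, beside 4.72% of all genes, and none a larger one, beside 0.994%. These were Ccl3 at -1.56 (SE 0.38, adjusted p = 0.0320), Ccl4 at -1.22 (SE 0.32, adjusted p = 0.0438), Ccl7 at -0.91 (SE 0.20, adjusted p = 0.0208), and Ccl2 at -0.88 (SE 0.18, adjusted p = 0.0156), on the log2 scale. Ccl9 at -0.54 (SE 0.14, adjusted p = 0.0416) stayed under the fold threshold. Ccl12 was at -1.04 (SE 0.36, adjusted p = 0.108), and the remaining 4 members, Ccl5, Ccl6, Ccl8, and Ccl11, were between -0.42 and 0.19. The count of 4 was 2 without heart 1 or heart 2 of 0 h or heart 1 of 8 h, and 6 without heart 3 of either time. For Ccl3 and Ccl4, LV was above RV in hearts 1 and 2 at 0 h and below RV in hearts 1 and 2 at 8 h, and for Ccl11, which was lower in LV throughout, the difference in the change was -0.29 (SE 0.24, adjusted p = 0.505).

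The members also differed in the genes whose pattern over the 18 libraries was most like theirs. Of 12708 other genes with a mean of at least 1 CPM, the highest Pearson r of log2 CPM with Ccl2 was that of Sele, the endothelial adhesion molecule E-selectin (r = 0.992), followed by Gadd45b (0.989) and Relb (0.988), a subunit of NF-kB. Ccl7 went with Tnfaip6 (0.991), Sdc4 (0.986), and Akap12 (0.984). Ccl3 was most like Plek (0.966), Slc4a7 (0.959), and Ell2 (0.957), and Ccl4 most like Tnfaip2 (0.984), Ell2 (0.980), and Sele (0.974). Ccl5 went with Stx11 (0.986), Nfkbie (0.984), an inhibitor of NF-kB, and Slc2a6 (0.983). All these values are descriptions over 18 libraries, whose points share the storage groups and, for both genes of a pair, the library and its depth.

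Ccl9 was most like Lrrc25 (0.989), Sh3pxd2b (0.984), and the matrix protease Mmp14 (0.979), Ccl8 most like Srgn (0.957), Arpc1b (0.953), and Rdh10 (0.950), and Ccl11 most like Slc41a2 (0.955), Creb3l1 (0.944), and Tnfrsf1b (0.938), a receptor for TNF. For Ccl12 these were Clec4n (0.929), Zc3h12c (0.895), and Lcp1 (0.891). Ccl6 stood apart here too, with Pf4 (0.922), Fcna (0.921), and Cfp (0.916), the gene of properdin. Between members, r was highest for the neighbours Ccl2 and Ccl7 (0.985) and Ccl3 and Ccl4 (0.979) and lowest for Ccl5 and Ccl6 (0.342).

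Other genes of the pathway were described from lists of ligands, receptors, atypical receptors, and regulators. Of 10 other CC ligands, 7 were tested. Ccl19, a ligand of Ccr7, rose in all 4 comparisons, by 3.45 (SE 0.76, adjusted p = 0.0712) and 3.92 (SE 0.76, adjusted p = 0.0319) on the log2 scale in LV and by 2.88 (SE 0.66, adjusted p = 0.0373) and 3.82 (SE 0.68, adjusted p = 0.00848) in RV. Its values were 0.169 to 1.19 CPM at 0 h and 2.31 to 19.7 CPM after storage, highest in the replicates 3. Ccl21a, also a ligand of Ccr7, and Ccl22, a ligand of Ccr4, rose in RV at 8 h, by 1.23 (SE 0.32, adjusted p = 0.0350) and 2.76 (SE 0.88, adjusted p = 0.0710). In LV at 8 h they stood at 0.45 (SE 0.16, adjusted p = 0.151) and 1.72 (SE 0.71, adjusted p = 0.187).

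Transcripts of the receptors were scarce, and 3 of 9 were tested. Ccr2, the receptor of Ccl2, Ccl7, and Ccl12, was 0.516 to 4.24 CPM at 0 h and 0.633 to 1.11 CPM after storage, and it fell by 1.61 (SE 0.47, adjusted p = 0.0797) at 4 h and by 1.31 (SE 0.47, adjusted p = 0.0960) at 8 h in RV on the log2 scale. In RV the libraries at 4 h all lay below those at 0 h, while 1 library at 8 h overlapped with them, and in LV the changes were -0.83 (SE 0.47, adjusted p = 0.453) and -0.62 (SE 0.47, adjusted p = 0.445). Ccr1, the receptor of Ccl3, Ccl5, Ccl6, and Ccl9, rose in RV at 8 h by 1.57 (SE 0.48, adjusted p = 0.0614). Ccr7 rose at 8 h in LV by 3.57 (SE 0.94, adjusted p = 0.0719) and in RV by 3.62 (SE 0.72, adjusted p = 0.0130), from at most 0.169 CPM to 0.237 to 1.24 CPM.

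Of 5 atypical receptors, all tested, 0 and 1 rose in LV and 2 and 4 in RV at 4 h and 8 h. Of all genes tested, 2.4% and 5.46% rose in LV and 6.17% and 13% in RV. Ackr1, which carries chemokines across endothelium, rose by 4.41 (SE 0.94, adjusted p = 0.0410) in LV at 8 h and by 3.23 (SE 0.84, adjusted p = 0.0557) and 4.51 (SE 0.84, adjusted p = 0.0100) in RV, at 0.0413 to 0.203 CPM at 0 h and 0.482 to 4.96 CPM after storage. Ackr2, a scavenger of inflammatory CC chemokines, rose in RV by 1.18 (SE 0.36, adjusted p = 0.0877) and 1.63 (SE 0.36, adjusted p = 0.0188), and stood at 0.09 (SE 0.38, adjusted p = 0.905) in LV at 8 h. Ackr3 and Ccrl2 rose in RV at 8 h by 0.89 (SE 0.19, adjusted p = 0.0166) and 3.02 (SE 0.79, adjusted p = 0.0364). Ccrl2 was 148 to 259 CPM in the stored replicates 3 and 28.5 to 80.1 CPM in the other stored libraries.

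Of 16 regulators of CC chemokine transcripts, 3 and 7 rose in LV at 4 h and 8 h and 10 and 14 in RV, and none was called lower. Among all genes tested, 2.4% and 5.46% rose in LV and 6.17% and 13% in RV, and 0.398% to 5.26% were called lower. Nfkb1, a subunit of NF-kB, rose by 1.63 (SE 0.30, adjusted p = 0.0406) and 1.69 (SE 0.30, adjusted p = 0.0230) in LV and by 1.89 (SE 0.27, adjusted p = 0.00775) and 2.35 (SE 0.27, adjusted p = 0.00165) in RV. Nfkb2, another subunit, rose by 1.33 (SE 0.31, adjusted p = 0.0516) in LV and by 1.91 (SE 0.31, adjusted p = 0.00637) in RV at 8 h. Fos, a component of AP-1, rose in RV by 1.79 (SE 0.27, adjusted p = 0.00935) at 4 h and 2.37 (SE 0.28, adjusted p = 0.00165) at 8 h, and stood at 1.49 (SE 0.45, adjusted p = 0.155) and 0.49 (SE 0.44, adjusted p = 0.517) in LV. Jun, another component, rose in RV by 0.85 (SE 0.26, adjusted p = 0.0856) and 1.57 (SE 0.26, adjusted p = 0.00665), and stood at 0.84 (SE 0.38, adjusted p = 0.324) and 0.17 (SE 0.37, adjusted p = 0.807) in LV. Mean Fos at 0, 4, and 8 h was 391, 1098, and 549 CPM in LV and 177, 607, and 902 CPM in RV. Mean Jun was 476, 850, and 534 CPM in LV and 332, 594, and 970 CPM in RV. Whether these changes differed between ventricles was not tested for the genes outside the family.

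**Figure D5:**
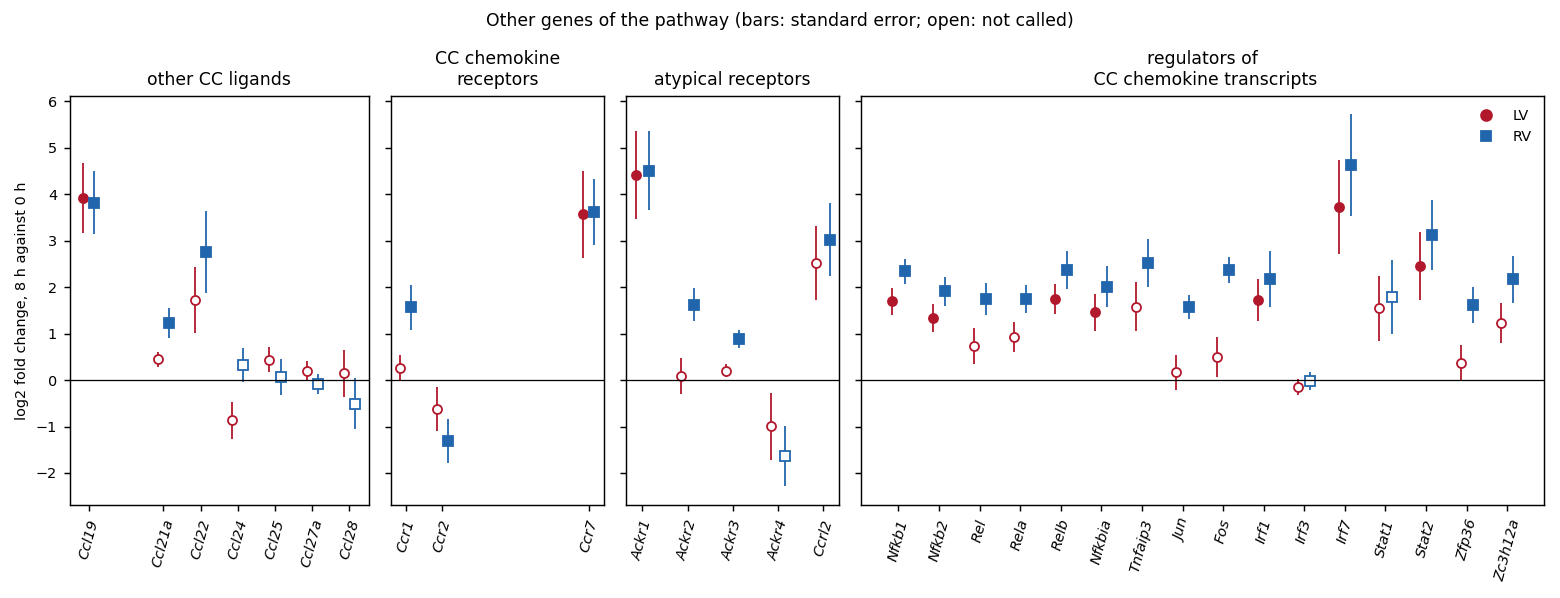
Log2 fold change at 8 h against 0 h (vertical axis, edgeR) of other CC ligands, CC receptors, atypical receptors, and regulators in LV (red circles) and RV (blue squares), with bars of 1 standard error and open symbols where not called. Genes with too few counts for the test are not shown. In RV 14 of 16 regulators are filled, and in LV 7, where 13% and 5.46% of all genes tested rose.

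Markers of the cells that could carry these transcripts were summed for each library. Macrophage markers (10 genes) ranged from 160 to 250 CPM in LV at 0 h, 173 to 248 CPM at 4 h, and 212 to 336 CPM at 8 h, and from 205 to 315 CPM, 222 to 274 CPM, and 254 to 484 CPM in RV. None of the 10 rose in LV or in RV at 4 h, and 4 rose in RV at 8 h, among them Mrc1 by 1.05 (SE 0.24, adjusted p = 0.0208) on the log2 scale. Monocyte markers (6 genes) were 51.9 to 58.6 CPM and 72.9 to 120.2 CPM in LV and 61.6 to 71.8 CPM and 94.5 to 179 CPM in RV at 0 h and 8 h. Neutrophil markers (9 genes) summed to 2.73 to 2.89 CPM at 0 h and 11.9 to 22.0 CPM at 8 h in LV and to 3.08 to 4.85 CPM and 14.8 to 22.7 CPM in RV. Of these neutrophil genes, Ly6g was at 0 in 5 of 6 groups, and Csf3r rose in all 4 comparisons. S100a9 was at most 0.0622 CPM at 0 h and, at 8 h, 0.949 to 6.38 CPM in LV and 0.133 to 1.48 CPM in RV. S100a8 and S100a9 rose in LV at 8 h by 6.89 (SE 1.01, adjusted p = 0.0128) and 6.64 (SE 1.09, adjusted p = 0.0189). In RV both had too few counts to be tested. Markers of T and NK cells (8 genes) summed to 1.38 to 1.65 CPM at 0 h and 1.54 to 1.83 CPM at 8 h in LV and to 1.19 to 1.67 CPM and 2.07 to 2.59 CPM in RV, with a highest value of 4.50 CPM in RV at 4 h. Those of B cells (4 genes) were 0.203 to 0.716 CPM and 0.780 to 1.54 CPM in LV and 0.292 to 0.508 CPM and 0.356 to 1.04 CPM in RV. Markers of endothelial cells, fibroblasts, smooth muscle, and mast cells had no call in LV, and in RV the mast cell gene Kit rose at 8 h by 0.88 (SE 0.26, adjusted p = 0.0542). Among the T cell markers Cd3d rose in RV at 4 h by 2.25 (SE 0.70, adjusted p = 0.0942), and among the cardiomyocyte markers Myh6 fell by 0.63 (SE 0.14, adjusted p = 0.0410) in LV at 8 h. Hemoglobin and other erythroid transcripts (5 genes) were 2.40 to 6.21 CPM at 0 h and up to 196 CPM after storage, and Hbb-bs and Hbb-bt rose in LV at 8 h. The part of these shifts in the chemokine levels was not tested.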

How the data were processed

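Libraries were prepared from total RNA of LV and RV with a directional kit and, per the study's methods, selection of mRNA. Per the labels and the study's methods, the authors quantified reads against GENCODE M21 transcripts (GRCm38) with Kallisto at default parameters and deposited, for each library, estimated counts and TPM values, which correct for transcript length, by transcript. Such counts divide ambiguous reads between transcripts, so genes with shared sequence are less certain.

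Here, estimated counts of 110203 of 111462 transcripts were summed by gene and rounded. CPM is relative to library size after TMM scaling, mitochondrial counts included. Log2 CPM used a prior count of 1. edgeR 4.0.16 in R 4.3.3 (quasi-likelihood test, low counts filtered by filterByExpr) was fitted across 14564 genes in LV, 14622 in RV, and 15093 for comparisons of ventricles. Calls needed an adjusted p under 0.1 over all genes tested and a fold over 1.5. The code was tested on simulated data. Groups came from the labels.

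Replicate numbers were used as a block between ventricles because all 9 same-number pairs correlated above 0.1 (0.284 to 0.668), whereas the labels do not say that a number names a heart. In RV, the numbers also correlated across storage times (0.107 to 0.461), and in LV they did between 4 h and 8 h (0.322 to 0.535). Alternatives were DESeq2 1.42.0, RLE factors, no filter, transcript-length offsets, no mitochondrial genes, all 18 libraries in 1 fit, the block, a Y-linked covariate, an adjusted p under 0.05, and leaving out each library. Fits without the stored replicates 3 and paired fits with other scalings or without 1 heart were chosen after seeing the data.

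Named genes were all 10 members, up to 4 called genes of each pathway list with the lowest adjusted p at 8 h, the 3 genes most like each member, and listed cell type markers. Gm17268, Tnf, Cxcl10, and Ddx3y were named outside this rule after their values were seen. 1 item is not reported here. The members and lists were chosen with earlier results of these data known. Promoters were taken from RefSeq for 5 of 10 members.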

Additional observations from a re-analysis of the deposited data

Results flagged for a closer look

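The change from 0 h to 8 h differed between ventricles for 4 CC chemokines by the interaction test with hearts as blocks. All 4 had a smaller increase in LV, as did 4.72% of all genes tested. The log2 change in LV minus that in RV was -0.88 for Ccl2, -1.56 for Ccl3, -1.22 for Ccl4, and -0.91 for Ccl7, with edgeR adjusted p-values of 0.0156, 0.0320, 0.0438, and 0.0208. In all 3 hearts of 8 h LV was below RV for each of these genes, as for 24.1% of all genes. In heart 3 RV was only 1.07 and 1.10 times LV for Ccl3 and Ccl4. With 1 heart left out, the count of 4 ranged from 2 to 6. Without the block the lowest adjusted p among the members was 0.9998.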

How the results depend on the processing

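Among counts of called members, 242 values stayed within 1.5 times of the reported count and 31 did not, and among log2 fold changes 1239 kept their direction and side of the threshold, 90 gained a call, 64 lost one, and 17 reversed. Leaving out single libraries gave 0 to 9 called members in LV at 4 h, 3 to 10 in LV at 8 h, 4 to 9 in RV at 4 h, and 9 to 10 in RV at 8 h. Between ventricles, the count of 0 without the replicate block became 2, 1, and 7 at 0, 4, and 8 h and 4 for the change to 8 h with it. With the block and RLE size factors these were 2, 1, 7, and 5, and with the block and transcript-length offsets 2, 2, 7, and 4. With the block and 1 heart left out they ranged from 1 to 2, 0 to 2, 4 to 9, and 2 to 6, and without heart 2 of 8 h they were 8 at 8 h and 4 for the change. In LV the replicate numbers correlated between 4 h and 8 h (0.322 to 0.535) but did not all correlate across storage times (lowest r -0.0155). The block in LV gave 9 called members at 4 h and 9 at 8 h. In RV the block changed no call.

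The reversed values were all between ventricles and not called. Without single libraries and without the block, the difference at 8 h ranged from -1.07 to 0.042 for Ccl5 and from -1.18 to 0.16 for Ccl6, and that in the change to 8 h from -1.74 to 0.019 for Ccl2, -0.94 to 1.08 for Ccl5, -0.46 to 0.88 for Ccl6, -1.14 to 0.031 for Ccl8, and -0.58 to 0.22 for Ccl11. For Ccl5 with the block, the change was -0.0010 with length offsets, -0.23 without heart 1 at 0 h, and -0.17 without heart 3 at 8 h. The cause was not tested. Depth limits Ccl8, Ccl5, and Ccl12, with as few as 6, 11, and 21 counts in a library.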
